A study of Mus musculus with 12 samples.

Results

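The cluster of miR-322, miR-351 and miR-503 is a row of microRNA hairpins on the mouse X chromosome, and its levels were read in the epididymal fat pads of male mice. Its members were the assays named miR-322, miR-351, miR-503, miR-450 or miR-542, either arm, in a table of RT-qPCR threshold cycles. That rule found 11 of the 504 microRNAs in the table. The cluster was selected on the Ct differences from the control diet of 3 of these assays, mmu-miR-351-5p, mmu-miR-351-3p and mmu-miR-503, written below without the species prefix. RefSeq holds 13 mature names for these hairpins. miR-503-3p and miR-450a-2-3p were not analysed here.

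All mice were male C57BL/6J of wild type, and the parents ate a standard breeding diet until mating. In the whole-life group, WL, food with 45% of kcal as fat was given from mating until the mice were killed at 23 weeks. In the group UL the high-fat diet ran through pregnancy and lactation, until weaning. In the group UT the litters met it in utero only, through the dam. The control group, CD, received a matching purified diet with 10% of kcal as fat. The diet of UL and UT mice after their exposure is not stated in the labels. Each group gave 3 pooled samples from 12 mice, with RNA from about 22 mg of fat pad. Nothing in the labels says which mice or litters entered which pool, so the p-values below measure the spread between pools.

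One long transcript carries the hairpins of this cluster, and each hairpin is cut into a 5p and a 3p arm, of which usually one is kept. In mouse muscle cell lines miR-322 (the counterpart of human miR-424) and miR-503 are known to rise as cells leave the cell cycle and to lower Cdc25A and cyclins. miR-351-5p carries the same seed as the miR-125 family, and miR-322-5p the same seed as the miR-15/16 family, which in human leukaemia cells represses cyclins and Bcl2. A microRNA binds its targets mainly through this seed, bases 2 to 8.

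In RefSeq on GRCm38.p6, the 7 hairpins lie on the minus strand of chromosome X within 6353 bases, from 53047997 to 53054349. In the direction of transcription Mir322 comes first (53054255 to 53054349), then Mir503 (53053984 to 53054054) and Mir351 (53053255 to 53053353). A gap of 3767 bases separates Mir351 from Mir542 (53049403 to 53049487). Mir450-2, Mir450-1 and Mir450b follow, the last of them at 53047997 to 53048078. All 11 assays matched a RefSeq mature sequence. The assay listed as miR-503 without an arm matched miR-503-5p. The assay listed as miR-450a matched miR-450a-5p, which Mir450-1 and Mir450-2 encode with the same letters.

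The mature sequences are shown because the members fall into different seed groups although they come from neighbouring hairpins. Each is given 5′ to 3′, with the seed in capitals.
miR-322-5p: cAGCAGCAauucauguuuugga
miR-322-3p: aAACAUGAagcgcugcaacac
miR-503: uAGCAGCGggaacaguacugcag
miR-351-5p: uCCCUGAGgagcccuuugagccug
miR-351-3p: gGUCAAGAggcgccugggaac
miR-542-5p: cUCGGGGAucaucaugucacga
miR-542-3p: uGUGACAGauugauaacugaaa
miR-450a: uUUUGCGAuguguuccuaauau
miR-450a-1-3p: aUUGGGAAcauuuugcauaaau
miR-450b-5p: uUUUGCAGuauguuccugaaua
miR-450b-3p: aUUGGGAAcauuuugcaugcau

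For 6 of the 11 members, no other mature name in the RefSeq table had the same seed. The seed of miR-322-5p was found in 10 RefSeq names, itself included, of which 6 were measured, and that of miR-351-5p in 5 names, itself included, of which 3 were measured. miR-503 had the same letters as miR-322-5p at positions 2 to 7 and differed from it at the last seed base. miR-450a-1-3p and miR-450b-3p shared a seed and differed in 2 of 22 bases, A19G and A20C, counted from the 5′ end with the miR-450a-1-3p base first. How far their assays tell them apart is not stated in the labels or files.

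Levels are given as a pool's average Ct across the 466 microRNAs with a value in every one of the 12 pools, minus the Ct of the assay. This relative level is in cycles on the log2 scale, so that a higher value stands for more template and 1 cycle for a 2-fold step if the PCR doubles its product each cycle. All 11 members were measured in all 12 pools. The median Ct of the pools ranged from 24.59 to 25.26, with 492 to 506 assays measured per pool. The fat-abundant miR-26a-5p and miR-30c-5p stood at mean levels of 7.77 and 6.67. Liver miR-122-5p stood at −0.90, and the highest of the muscle microRNAs, miR-499-5p, at 3.29. Because whole tissue was pooled, fewer cells of a type and less RNA per cell cannot be told apart in any of the values below.

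Averaged over the 12 pools, miR-351-3p came earliest of the members, at a mean level of 3.24 and a mean Ct of 21.62. It was followed by miR-322-5p at 2.78, whose mean Ct was 22.08 and which came earlier than miR-351-3p in WL 3 and the 3 CD pools. miR-450b-3p (−0.82) and miR-351-5p (−0.88) lay next to each other near the average microRNA, and they did not differ beyond the spread over pools. Then came miR-322-3p (−2.13), miR-450b-5p (−2.87), miR-542-5p (−3.75), miR-450a (−4.21), miR-542-3p (−4.61) and miR-450a-1-3p (−5.10), each within 1 cycle of the next. miR-503 came last, at −7.28 and a mean Ct of 32.14, above only 2.98% of the microRNAs. Assay efficiencies were not measured here, so this order is one of Ct and need not be an order of amounts.

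Against the control diet, miR-503 had the largest difference in WL and in UL, and miR-351-3p in UT. Both are among the 3 assays on which the cluster was selected. Other members differed too, such as miR-542-3p by 1.13 in UL, and miR-450b-5p by −0.88 and miR-322-3p by −0.73 in UT. miR-503 stood higher in WL and UL than in CD by 2.76 and 2.55 on the log2 scale, and it differed from CD by −0.12 in UT. miR-351-3p stood higher in all 3 high-fat groups, by 1.18 in WL, 0.73 in UL and 1.42 in UT. miR-351-5p stood higher by 0.77 in WL, 1.56 in UL and 0.48 in UT. Because the cluster was selected on its differences from CD, those differences are a description here and carry no test.

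**Figure D1:**
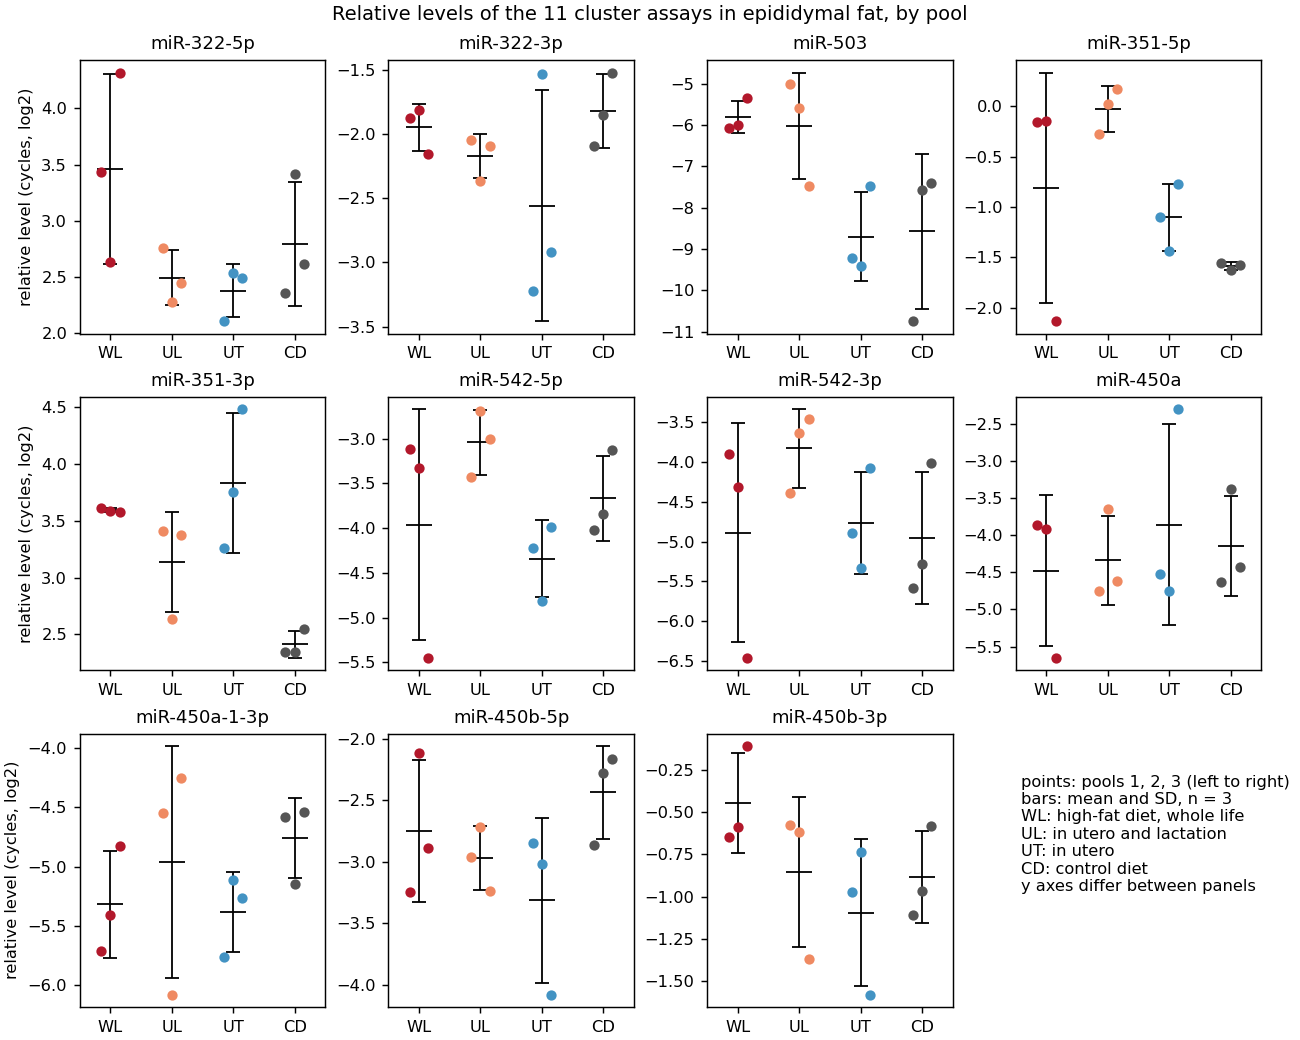
Relative level (cycles, log2, y axis; axes differ between panels) of each of the 11 cluster assays in the 3 pools of WL, UL, UT and CD; points are pools and bars the mean and SD (n = 3). The high-fat pools of miR-351-3p, at 2.63 to 4.48, sit above the 3 CD pools, at 2.34 to 2.55, and the WL pools of miR-503, at −6.07 to −5.36, sit above every UT and CD pool.

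miR-503 had relative levels of −6.07, −6.00 and −5.36 in the WL pools, −5.01, −5.59 and −7.48 in the UL pools and −9.21, −9.42 and −7.47 in the UT pools, against −10.74, −7.59 and −7.39 in the CD pools. The 3 WL pools lay above all CD pools, and UL 3 lay between CD 2 and CD 3. Means were −5.81 ± 0.39 in WL, −6.02 ± 1.29 in UL, −8.70 ± 1.07 in UT, against −8.57 ± 1.88 in CD (SD, n = 3 each). The differences from CD were 2.76 in WL, 2.55 in UL and −0.12 in UT, with a standard error of 0.90 each, and 2.76 corresponds to a 6.79-fold difference.

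The measurement of miR-503 was late in every pool, with a Ct of 30.97, 30.91 and 30.35 in the WL pools, 29.97, 30.56 and 32.35 in the UL pools and 33.84, 33.99 and 32.53 in the UT pools, against 35.54, 32.38 and 32.28 in the CD pools. CD 1 was the latest of all 12 pools and its value the only one past a Ct of 35. Without CD 1 the differences from CD were 1.68 in WL, 1.46 in UL and −1.21 in UT. The SD of miR-503 within groups, 1.28, was larger than that of 90.5% of the microRNAs, and larger than that of 70.2% of the 47 microRNAs with a mean Ct of 30 or later. The median SD was 0.97 cycles for these late assays and 0.53 for all.

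miR-351-3p, the earlier arm of its pair, had relative levels of 3.62, 3.58 and 3.58 in the WL pools, 3.41, 2.63 and 3.37 in the UL pools and 3.26, 3.75 and 4.48 in the UT pools, against 2.34, 2.35 and 2.55 in the CD pools. Every high-fat pool lay above every CD pool, with UL 2 closest. The WL pools were nearly equal, at 3.59 ± 0.02, while UL (3.14 ± 0.44) and UT (3.83 ± 0.62) spread more, against 2.41 ± 0.12 in CD (SD, n = 3 each). The standard error of each difference from CD was 0.35. The difference kept its sign in each of the 26 alternative settings tried, at 0.80 to 1.44 in WL, 0.59 to 1.09 in UL and 0.76 to 2.16 in UT. Some of these settings, such as robust eBayes, cannot move a fold change.

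miR-351-5p, the arm with the miR-125 seed, had relative levels of −0.15, −0.15 and −2.13 in the WL pools, −0.28, 0.02 and 0.17 in the UL pools and −1.10, −1.44 and −0.77 in the UT pools, against −1.55, −1.63 and −1.57 in the CD pools. The UL and UT pools all lay above the CD pools, which differed from each other by less than 0.1 cycles. WL 1 and WL 2 lay with the UL pools and WL 3 below the CD pools. The differences from CD were 0.77 in WL, 1.56 in UL and 0.48 in UT, with a standard error of 0.48 each, and without WL 3 the WL difference was 1.43.

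miR-322-5p is the member best known for slowing cell division in mouse muscle cells. Its relative levels were 3.44, 2.63 and 4.32 in the WL pools, 2.76, 2.28 and 2.44 in the UL pools and 2.11, 2.53 and 2.49 in the UT pools, against 2.36, 3.42 and 2.62 in the CD pools. WL 3 was the highest of the 12 pools, and the ranges of all 3 high-fat groups overlapped that of CD. The differences from CD were 0.67 in WL, −0.30 in UL and −0.42 in UT (standard error 0.43), and scaling to RNU-43 turned the UL and UT differences to 0.06 and 0.32. Its partner arm miR-322-3p differed from CD by −0.13 in WL, −0.35 in UL and −0.73 in UT (standard error 0.41). Scaling to RNU-43 turned the UL and UT differences slightly positive, to 0.02 and 0.01. U6 had no value in WL 3, so scaling to U6 also left that pool out. The WL difference was 0.23 with U6, beside −0.02 with only WL 3 left out.

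The Mir542 hairpin gives miR-542-3p, known to repress survivin in human cells, and miR-542-5p. miR-542-3p had relative levels of −3.90, −4.31 and −6.46 in the WL pools, −4.39, −3.64 and −3.46 in the UL pools and −4.89, −5.33 and −4.07 in the UT pools, against −5.58, −5.28 and −4.01 in the CD pools. miR-542-5p had −3.12, −3.33 and −5.45 in the WL pools, −3.43, −2.70 and −3.01 in the UL pools and −4.22, −4.82 and −3.99 in the UT pools, against −4.03, −3.85 and −3.13 in the CD pools. In both arms WL 3 was the lowest of the 12 pools. miR-542-3p differed from CD by 0.07 in WL, 1.13 in UL and 0.19 in UT (standard error 0.66), and miR-542-5p by −0.30, 0.62 and −0.67 in WL, UL and UT (0.56), with ranges that overlapped CD in every case. The UL differences turned to −0.23 and −0.79 when the 10 assays with neighbouring accession numbers were subtracted.

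The 4 miR-450 assays differed from CD by −0.88 to 0.44, and each group's range overlapped that of CD in all of them. miR-450b-5p lay below CD in all 3 groups, by −0.32 in WL, −0.54 in UL and −0.88 in UT (standard error 0.41). Its WL difference was 0.01 when scaled to U6, a fit without WL 3, and −0.25 with only WL 3 left out. miR-450a-1-3p lay below CD by −0.56, −0.20 and −0.62 in WL, UL and UT (standard error 0.47), and scaling to RNU-43 turned the UT difference to 0.12, as leaving out UL 2 turned the UL difference to 0.36. miR-450a had the second largest standard error of the members, 0.70, and UT 3, at −2.31, was the highest of the 12 pools. miR-450b-3p was the steadiest member within groups, with an SD of 0.37 and levels from −1.58 to −0.11.

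**Figure D2:**
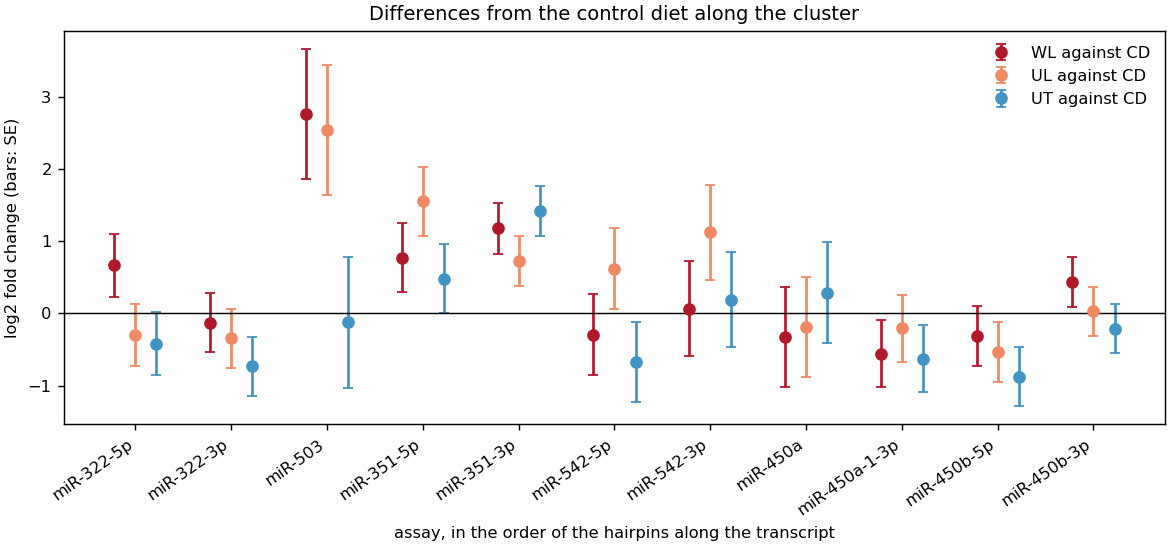
Log2 fold change against CD (y axis, bars are the SE of the limma fit) of the 11 assays in the order of their hairpins along the transcript (x axis), for WL, UL and UT. miR-503 at 2.76 in WL and 2.55 in UL and the 2 arms of miR-351 stand above 0, while the arms of Mir322 and of the miR-450 hairpins lie on either side of it or below it. The arms of Mir542 lie on either side of 0, with miR-542-3p at 1.13 in UL.

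Counted over the cluster, 6 members stood above CD in WL, where 43.5% of all microRNAs did, 6 in UL (43.7%) and 4 in UT (48.8%). These counts depended on the scaling and on WL 3. With RNU-43 they were 10 in UL and 10 in UT, with the medians of all microRNAs at 0.30 and 0.73. With U6, a fit without WL 3, the count in WL was 10, with the median of all at 0.26. Leaving out only WL 3 gave 8. The share of all microRNAs above CD was not counted in these settings. Without these changes, the median difference from CD was 0.07 over the 11 members in WL, 0.03 in UL and −0.21 in UT. Over all 504 microRNAs it was −0.06, −0.07 and −0.01. Pools that did not overlap CD and lay above it were found for 2 members in WL, miR-503 and miR-351-3p, beside 5.82% of the microRNAs measured in all 6 pools. The same count was 2 in UL (background 3.64%) and 2 in UT (7.08%), in both groups miR-351-5p and miR-351-3p. No member lay wholly below CD in any of the 3 groups (backgrounds 5.2%, 4.24% and 6.88%). In limma with Benjamini-Hochberg adjustment over 504 microRNAs, 0 of 11 members passed an adjusted p of 0.05 against CD in WL (background 0.595%), in UL (0.595%) or in UT (1.39%). At an unadjusted p under 0.05 the counts were 2 in WL (7.14%), 2 in UL (2.78%) and 1 in UT (10.1%). Because the cluster was selected on these differences, neither count is a test of it. The 3 comparisons share the CD pools.

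The high-fat groups were also compared with each other. Each such contrast is the difference between 2 differences from CD, and the cluster was selected on differences from CD. For miR-503 and the 2 arms of miR-351, the p-values below are therefore no independent test. The contrasts ask whether exposure to 23 weeks, to weaning or to birth went with a difference in level. WL mice were given the high-fat diet until they were killed. In the contrasts with WL, the length of exposure and high-fat feeding at the end therefore cannot be told apart. In limma, 0 of 11 members and 0% of the 504 microRNAs passed an adjusted p of 0.05 in any of these 3 comparisons. At an unadjusted p under 0.05, the members counted were 1 in WL against UL (background 5.36%), 2 in WL against UT (15.7%) and 3 in UL against UT (7.94%).

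Whole-life exposure against exposure in utero gave the largest of these differences. miR-503 was 2.89 ± 0.90 higher in WL than in UT (log2, SE; limma, adjusted p = 0.192), with levels of −6.07 to −5.36 in WL and −9.42 to −7.47 in UT, so the pools did not overlap. miR-322-5p was 1.09 ± 0.43 higher in WL than in UT (limma, adjusted p = 0.262), and miR-450b-3p was 0.65 ± 0.34 higher (limma, adjusted p = 0.375), also without overlap of pools. miR-322-5p was 0.66 higher without WL 3, 0.36 when scaled to RNU-43 and 0.49 with the neighbouring assays subtracted. For miR-450b-3p the difference was −0.08 when scaled to RNU-43 and 0.004 with the neighbours subtracted. These 3 members were those that lay wholly above UT, where 9.98% of the microRNAs did. Over the cluster, 8 of 11 members stood higher in WL than in UT (background 44%), with a median of 0.38 beside −0.09 over all microRNAs, and scaling to RNU-43 left 2 members higher, with the median of all microRNAs at −0.81.

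Exposure to weaning against exposure in utero differed in the same assay. miR-503 was 2.67 ± 0.90 higher in UL than in UT (limma, adjusted p = 0.490), with UL 3 at −7.48 just below UT 3 at −7.47. miR-351-5p was 1.07 ± 0.48 higher (limma, adjusted p = 0.601), and miR-542-5p 1.30 ± 0.56 higher (limma, adjusted p = 0.601). In these last 2 assays every UL pool lay above every UT pool, as it did for 4.78% of the microRNAs. miR-351-3p ran the other way from its partner arm, at −0.69 ± 0.35 (limma, adjusted p = 0.657). Of the 11 members, 9 stood higher in UL than in UT (background 46.6%), with a median of 0.39 beside −0.03 over all microRNAs, and scaling to RNU-43 left 6 members higher, with the median of all microRNAs at −0.41. With the neighbouring assays subtracted, 5 members stood higher, with the median of all microRNAs at −0.01. The differences were then 2.51 for miR-503, 0.55 for miR-351-5p and 0.10 for miR-542-5p.

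Whole-life exposure against exposure to weaning showed less. miR-322-5p was 0.97 ± 0.43 higher in WL than in UL (limma, adjusted p = 0.805), and without WL 3 it was 0.54 higher. miR-503 differed by 0.21 ± 0.90 (limma, adjusted p = 0.986), so a difference of several-fold in either direction lies within its error. miR-351-3p was the member whose WL pools lay wholly above the UL pools (background 6.38%), at 0.45 ± 0.35 (limma, adjusted p = 0.826). No member lay wholly below in any comparison of high-fat groups (backgrounds 3.5% in WL against UL, 9.34% in WL against UT and 8.52% in UL against UT).

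The arms of a hairpin come from the same precursor, so their difference in Ct was set out per pool. The 5p arm of Mir322 came earlier than the 3p arm by 4.91 cycles on average, from 4.07 to 6.48 over the 12 pools. In Mir351 the 3p arm came earlier in every pool. The level of miR-351-5p minus that of miR-351-3p was −4.13 on average. It was −4.40 ± 1.13 in WL, −3.17 ± 0.54 in UL and −4.93 ± 0.50 in UT, against −4.00 ± 0.11 in CD (n = 3 each, SD), so the UL pools lay on one side of the CD pools and the UT pools on the other. In Mir542 the 5p arm came earlier by 0.85 cycles on average (0.08 to 1.55), and in Mir450b the difference was −2.05 (−2.78 to −1.31), the 3p arm being the earlier. The difference between miR-450a and miR-450a-1-3p changed sign between pools, from −0.82 to 2.96. Mir450-1 and Mir450-2 both encode miR-450a, and miR-450a-1-3p comes from Mir450-1, so this is not a difference within 1 hairpin.

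Profiles over the 12 pools were compared by centring each assay on its own mean and taking the root mean square difference. Among the 55 pairs of members, the arms of Mir542 were closest, at 0.39 cycles, followed by the arms of Mir450b at 0.45. miR-351-5p lay nearer to miR-542-3p (0.47) than to its own partner arm (0.85). The arms of Mir322 differed by 0.65. Assays with neighbouring miRBase accession numbers deviated together in some pools. The arms of Mir542, of Mir450b and of Mir322 are such neighbours of each other, while those of Mir351 are not. miR-503 and miR-542-3p are also neighbours, and they differed by 1.685. The part of the accession order in the closeness of arms was not tested. miR-503 and miR-450a were farthest apart, at 1.88. The median over member pairs was 1.00, beside 0.82 over the 108345 pairs of the 466 microRNAs measured in all pools. This distance is not scaled by an assay's own spread, so it grows with that spread. The SD within groups ran from 0.37 for miR-450b-3p to 1.28 for miR-503, beside a median of 0.53 over all microRNAs. The 2 medians therefore cannot tell whether members vary together less than other microRNAs do.

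The microRNAs outside the cluster with the nearest profiles differed from member to member. Nearest to miR-351-5p were miR-17-3p at 0.27, miR-543 at 0.36 and miR-540 at 0.43 cycles. miR-351-3p was nearest to miR-329-5p (0.27), miR-341-5p (0.31) and miR-485-3p (0.42). miR-543 was also the nearest to miR-542-5p (0.28) and to miR-542-3p (0.39). miR-322-5p was nearest to let-7e-5p (0.32) and to miR-497-5p (0.35), which carries the same seed. For miR-503 the nearest, miR-34a-3p, was 1.39 cycles away, beside an SD of 1.72 for miR-503 itself over the pools. Some of these likenesses are between assays with neighbouring accession numbers. They are those of miR-17-3p with miR-351-5p, miR-341-5p with miR-351-3p, and miR-543 with both arms of Mir542. The other likenesses named are not between such neighbours. The part of the accession order in these likenesses was not tested.

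WL 3 stood apart from WL 1 and WL 2 in many assays, and the members parted there. Set against the mean of the other WL pools, 32.7% of 495 microRNAs differed by more than 1 cycle in WL 3. Lower in WL 3 were miR-542-3p by −2.36, miR-542-5p by −2.23, miR-351-5p by −1.98 and miR-450a by −1.76. miR-322-5p was 1.29 higher, and miR-351-3p differed by −0.02. UT 2 stood apart in 21.2% of 490 microRNAs and, among the members, in miR-322-3p (1.53 higher), miR-450a (−1.33) and miR-503 (−1.08). Leaving out WL 3 turned the sign of the WL difference from CD in miR-542-5p, to 0.45 from −0.30 with it, and in miR-450a, to 0.26 from −0.33. For miR-542-3p the difference was 0.85 without WL 3 and 0.07 with it, for miR-322-5p 0.24 and 0.67, and for miR-503 2.54 and 2.76.

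**Figure D3:**
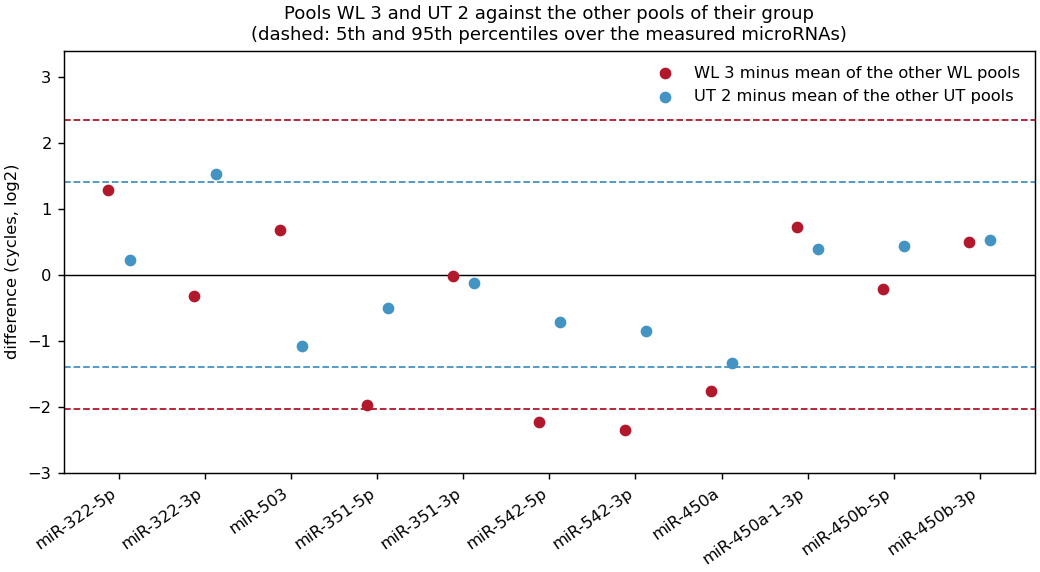
Level in WL 3 and in UT 2 minus the mean of the other 2 pools of the same group (cycles, log2, y axis) for each of the 11 assays (x axis); dashed lines mark the 5th and 95th percentiles over all measured microRNAs. In WL 3 both arms of Mir542 lie below the lower line of −2.04, and in UT 2 miR-322-3p lies above the upper line of 1.42.

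Assays next to each other in the order of their miRBase accession numbers deviated together in some pools. Whether this order follows the layout of the assay plates is not stated in the labels or files. For each member, the median deviation of the 10 neighbouring assays from their own means was computed in every pool. The neighbours of miR-503, of which 1 was a cluster member, lay at 1.16, 0.26 and 0.09 in the WL pools, against −1.66, −2.18 and 0.18 in the CD pools. With these medians subtracted, miR-503 differed from CD by 1.04 in WL, 0.53 in UL and −1.98 in UT. The difference of miR-503 between WL and UT was 3.02 after the same step, close to the 2.89 before it.

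The neighbours of miR-351-5p, none of them in the cluster, lay at −1.09 in WL 3, the pool in which miR-351-5p was low. After they were subtracted, WL stood 0.73 above CD, UL 1.10 and UT 0.55. The neighbours of miR-351-3p were also all from outside the cluster, and with them subtracted WL stood 0.80 above CD, UL 0.61 and UT 0.76. In Mir542 the neighbours included 2 cluster members for the 3p arm and 1 for the 5p arm. They lay at −1.20 in WL 3. The part of the neighbours in the members' differences was not tested beyond these subtractions.

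**Figure D4:**
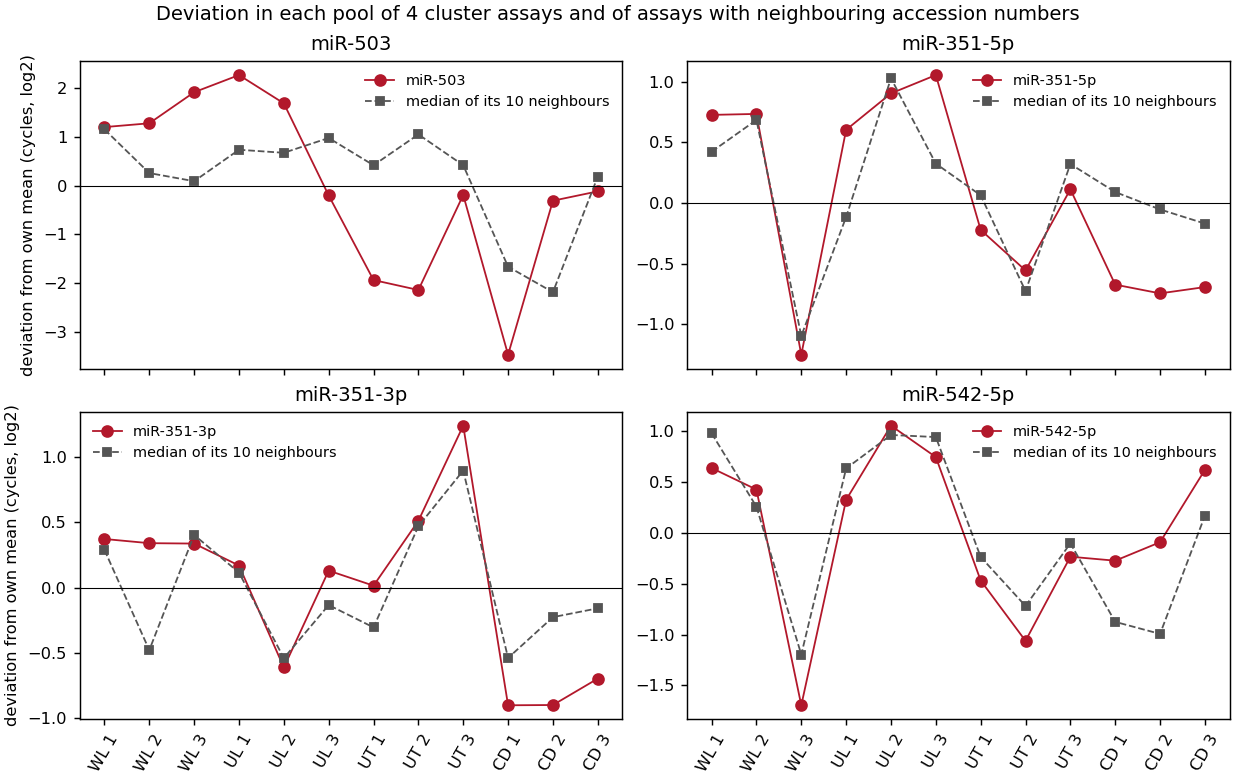
Deviation from its own mean over the 12 pools (cycles, log2, y axis) of 4 members (circles) and median deviation of their 10 neighbours by accession number (squares), in each pool (x axis). The neighbours of miR-503 drop to −1.66 in CD 1 and −2.18 in CD 2, and in WL 3 miR-351-5p and miR-542-5p lie low together with their neighbours.

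Markers of other cell types were read in the same pools. The epithelial list, 6 of 6 measured, summed to log2 levels of 4.86 to 7.40 in WL, 5.21 to 6.48 in UL and 2.89 to 5.21 in UT, against 4.37 to 7.19 in CD. The leukocyte list, 6 of 6 measured, summed to 5.83 to 7.87 in WL, 5.42 to 6.13 in UL and 4.67 to 5.84 in UT, against 5.49 to 6.43 in CD. The epithelial sums were lowest in UT, although their range there overlapped those of WL and CD. miR-503 lay below its WL level both in UT and in CD, at means of −8.70 and −8.57. The epithelial sums of CD did not share the low range of UT, and reached 7.19. The muscle list, 6 of 7 measured, differed less, with sums of 3.84 to 4.28 in WL, 3.35 to 3.99 in UL and 3.42 to 4.03 in UT, against 3.68 to 3.99 in CD. The germ cell list, 7 of 13 measured, summed to 4.04 to 4.64 in WL, 4.66 to 5.32 in UL and 3.98 to 5.31 in UT, against 4.67 to 5.78 in CD, so its WL sums lay below those of UL and CD. These sums mostly follow miR-742-3p, at a mean level of 4.69 beside 0.26 for miR-470, the next highest of the list. miR-742-3p differed from CD by −1.03 in WL and −0.71 in UT. Of the 7 germ cell members, 6 stood above CD in UT (48.8% of all microRNAs). In WL against UT, 0 of them stood higher (44% of all microRNAs). Liver miR-122-5p lay at −2.09 to −1.40 in WL, −1.34 to 0.70 in UL and −1.54 to −0.70 in UT, against −1.54 to −0.20 in CD. In limma 0 members of these 5 lists passed an adjusted p of 0.05 in any comparison. Their part in the differences of the cluster was not tested.

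The microRNAs that share a seed with the cluster were set beside it because they could bind the same targets. Their sequences, with the seed in capitals, share the seed of miR-351-5p or miR-322-5p but not the base that follows it.
miR-125a-5p: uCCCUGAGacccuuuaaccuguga
miR-125b-5p: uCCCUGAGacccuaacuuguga
miR-15a-5p: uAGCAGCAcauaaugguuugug
miR-16-5p: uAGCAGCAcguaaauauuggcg
miR-497-5p: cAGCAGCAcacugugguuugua

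These relatives came earlier than the cluster members, except miR-497-5p. miR-125a-5p and miR-125b-5p stood at mean levels of 5.61 and 6.40, beside −0.88 for miR-351-5p. miR-125a-5p differed from CD by −0.04 in WL, −0.14 in UL and −0.73 in UT, and miR-125b-5p by 0.18, 0.18 and −0.70, while miR-351-5p stood higher by 0.77, 1.56 and 0.48. miR-16-5p, at a mean level of 7.12, differed by 0.48 in WL, 0.19 in UL and 0.42 in UT. miR-497-5p, whose mean level was −0.19, stood 0.94 above CD in WL and differed by −0.03 in UL and −0.08 in UT. miR-15a-5p, miR-15b-5p and miR-195a-5p differed from CD by −0.71 to 0.42 over the 3 groups. In limma 0 of these 7 relatives passed an adjusted p of 0.05 in any comparison.

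**Figure D5:**
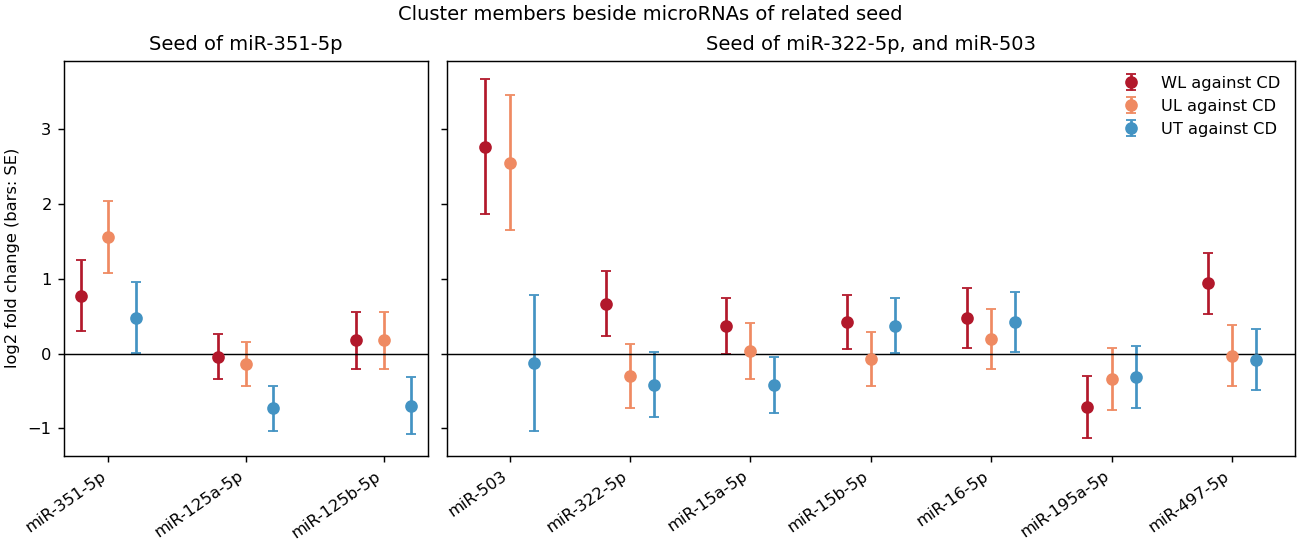
Log2 fold change against CD (y axis, bars are the SE) in WL, UL and UT of miR-351-5p beside the 2 microRNAs of its seed, and of miR-503 and miR-322-5p beside the 5 microRNAs of the miR-322-5p seed. miR-503 at 2.76 in WL and 2.55 in UL and miR-351-5p at 1.56 in UL stand above their relatives, whose values lie between −0.73 and 0.94.

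The authors' deposited table of fold changes gives ratios for the same assays, in which a value under 1 stands for an earlier Ct than in CD. For miR-503 the authors' deposited table lists 0.129 in WL, 0.503 in UL and 0.804 in UT, where the named groups' own pools gave 0.0895, 0.131 and 0.804. For miR-351-5p the authors' deposited table lists 0.447 in WL, 0.693 in UL and 0.813 in UT, where the own pools gave 0.786, 0.357 and 0.811. In 11 of 11 members the UL column of the authors' deposited table equalled an average taken over UT 2, UT 3 and UL 1, and its WL column an average over UT 3, UL 1 and UL 2 (tolerance 0.02 on the log2 scale). The column for UT matched its own pools in 11 of 11 members. All values given above come from the Ct table.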

How the data were processed

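Per the file headers, the authors deposited Ct values by RT-qPCR before normalization, together with normalized values and fold changes as ratios. Per the labels' protocols, RNA was isolated with the miRNeasy kit. The PCR platform and the rule that set the Ct are not stated in the labels or files. Tested on the values, the deposited ratios grew with later Ct, opposite to their header, so Ct was analysed.

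One duplicate row was dropped, which left 504 microRNAs and 2 reference RNAs, with 57 values missing. Relative level was the pool's mean Ct over 466 complete microRNAs minus Ct. A filter of Ct under 35 in at least 3 pools removed none. All 12 pools were fitted in 1 two-sided limma 3.58.1 model (R 4.3.3) of 4 groups, Benjamini-Hochberg adjusted over 504 microRNAs at 0.05. It was tested on simulated data. The number of pools limits the precision, and pools were treated as independent. Names were given to all 11 members, to their 3 nearest profiles or some of them, to seed relatives and to the highest markers of a list. Sequences are from RefSeq GRCm38.p6. Members, lists and tests were chosen with earlier results of these data known. Alternatives covered scaling, filters, the spread model, neighbouring assays and left-out pools.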

Additional observations from a re-analysis of the deposited data

How the results depend on the processing

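Over 26 settings, the 6 differences between high-fat groups with an unadjusted p under 0.05 kept their sign and stayed above an adjusted limma p of 0.05 in 156 of 156 values. miR-503 ranged from 2.16 to 3.5 in WL against UT (adjusted p 0.173 to 0.370) and from 2.17 to 3.4 in UL against UT (0.146 to 0.877). Of the other 60 fold changes, 1512 of 1560 values moved by less than the spread between pools and 48 by more. Several settings cannot move a fold change, such as robust eBayes, no filter, or leaving out a pool of a group not compared. Both this count and the 156 kept signs include such values, which were fixed in advance. The count of members past the threshold in UL against CD was 0 (background 0.595%). It was 1 (miR-351-5p) when only the 2 groups compared were fitted (background 0.794%) and with array weights (1.19%). It was also 1 without UT 2 and WL 3 together (1.19%), and without WL 3 (0.992%). Leaving out each pool in turn gave counts from 0 to 1 there (backgrounds 0.397% to 1.2%). The cluster was selected on differences from CD, so these counts are no test of it. In UT against CD the count was 0 (background 1.39%), and 1 (miR-351-3p) when scaled to RNU-43 (background 2.38%). Against CD, the median over all microRNAs was 0.73 in UT with that scaling (−0.01 without), 0.30 in UL (−0.07 without), and 0.26 in WL with U6 (−0.06 without). The fit with U6 lacked WL 3, and leaving out only that pool gave a median of 0.01 in WL.

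With the replicate number as a block, 0 members passed in any comparison (backgrounds 0% to 0.794%). The fold changes were those without the block, such as 2.89 for miR-503 in WL against UT. Deviations of pools with the same number correlated at −0.27 to 0.26 in 18 pairs, 7 of them over 0.1. Pools with different numbers correlated at −0.35 to 0.31 in 36 pairs. These correlations cannot settle whether equal numbers share animals, litters or a run, because the labels do not say how the pools were made. Late Ct limits what miR-503 can show: without values at a Ct of 35 or later, it differed from CD by 1.68 in WL.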
